A study of Arabidopsis thaliana with 9 samples.

Results

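The genes described here are 10 regulators of the iron deficiency response of Arabidopsis thaliana, picked by locus code from a table of 33473 genes. They are the 4 transcription factors of the bHLH Ib group (bHLH38, bHLH39, bHLH100 and BHLH101), the transcription factor PYE, the E3 ubiquitin ligase BTS, the 3 small peptides IMA1, IMA2 and IMA3, and the transporter OPT3. All 10 had a mean of at least 5 FPKM, the minimum used for every count, which 13946 genes reached. FPKM divides a gene's fragments by its transcript length and by the size of the library. Levels can be set beside each other between genes only where the annotated lengths are right. The set was proposed with the deposited values in view, and its values are given as a description.

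RNA was sequenced from shoots of accession Col-0 at 21 days of age. Plants of every group had grown at 23 °C in continuous light of low intensity (50 µmol m-2 s-1). The groups were plants kept for 0 s (the control), 20 s or 60 s at 1000 µmol m-2 s-1 and 21 °C, and pots were then dipped in liquid nitrogen. The labels list 3 pools of leaves per exposure, each from at least 30 plants and 9 in all, but the table analysed here holds 1 FPKM value per gene and exposure. No difference below therefore has an error, a replicate check or a test, and "lower" and "higher" describe deposited values only. The leaf markers RBCS1A, CA1, LHCB3 and PRK stood between 954 and 13889 FPKM at every exposure. Among the 5 root markers, EXPA7 and LRX1 were listed at 0 at every exposure, COBL9 and CASP1 stood at no more than 0.277 FPKM, and PYK10, which is not confined to roots, stood at 51.1, 66.2 and 66.7 FPKM. The 3 flower markers stood at no more than 0.329 FPKM. In such bulk tissue, fewer cells of a type and less RNA per cell cannot be told apart.

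Plants that lack iron switch on a cascade of transcription factors. Factors of the bHLH IVc group (bHLH34, bHLH104, ILR3 and bHLH115), acting with bHLH121, activate the bHLH Ib genes, PYE, BTS and the IMA genes. BTS marks bHLH IVc proteins for breakdown and so restrains the response, and IMA peptides interact with BTS and relieve that restraint. In roots the bHLH Ib proteins pair with FIT to turn on iron uptake. PYE represses other iron genes, among them NAS4, FRO3 and ZIF1. OPT3 loads iron into the phloem and is needed for the signal by which leaves report their iron status to the root.

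The reading frames of the IMA genes are short, with 50 codons in IMA1, 50 in IMA2 and 47 in IMA3, and their shared feature is the end of the peptide. The last 17 codons before the stop are shown because this stretch is the conserved part of the family. They were read from the RefSeq sequence of assembly TAIR10.1, plus strand, at chr1:17385917-17385967, chr1:17383216-17383266 and chr2:13108158-13108208. Capitals mark the 34 of 51 bases that are the same in all 3.
IMA1: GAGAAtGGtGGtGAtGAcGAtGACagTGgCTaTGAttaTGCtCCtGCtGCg
IMA2: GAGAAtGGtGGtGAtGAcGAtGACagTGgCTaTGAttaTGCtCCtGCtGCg
IMA3: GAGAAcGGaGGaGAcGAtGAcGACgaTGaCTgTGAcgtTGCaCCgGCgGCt
IMA1 and IMA2 were identical over all 51 bases, and their whole coding sequences matched at 88.9% of aligned positions. Their annotated transcripts shared an unbroken run of 59 bases. Reads that fall there cannot be assigned to a single gene, so the separate values of IMA1 and IMA2 are uncertain.

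Basic helix-loop-helix proteins bind the E-box CANNTG, of which the G-box CACGTG is a form. Of the 250 bases before the gene start, counted on the RefSeq annotation of TAIR10.1, 4 of the 10 genes held CACGTG, namely bHLH38, bHLH100, BTS and OPT3, against 6.5% of 27443 promoters of protein-coding genes. CANNTG was found for 8 of the 10, against 55.3%. Related genes such as IMA1 and IMA2, whose windows are alike over long stretches, were counted separately, so these shares are for reference only. Both motifs read the same on both strands, and every CACGTG is also counted as a CANNTG. BHLH101 and PYE had neither in this window. The windows of the tandem pair bHLH38 and bHLH39 and of BTS, which held 3 copies of CACGTG, are shown, since the pair differs in its motif and BTS holds the most copies. They lie at chr3:21085246-21085495 (minus strand), chr3:21087711-21087960 (minus strand) and chr3:6273716-6273965 (plus strand). Capitals mark each CANNTG.
bHLH38: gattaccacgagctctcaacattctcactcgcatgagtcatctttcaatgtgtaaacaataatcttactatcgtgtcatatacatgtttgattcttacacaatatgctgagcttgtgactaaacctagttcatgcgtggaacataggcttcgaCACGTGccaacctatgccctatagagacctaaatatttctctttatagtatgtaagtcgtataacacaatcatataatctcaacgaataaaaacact
bHLH39: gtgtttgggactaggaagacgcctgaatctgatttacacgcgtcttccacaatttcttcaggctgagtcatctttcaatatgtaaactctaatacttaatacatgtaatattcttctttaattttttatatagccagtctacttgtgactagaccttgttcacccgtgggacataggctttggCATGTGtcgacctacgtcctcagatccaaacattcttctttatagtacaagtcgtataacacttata
BTS: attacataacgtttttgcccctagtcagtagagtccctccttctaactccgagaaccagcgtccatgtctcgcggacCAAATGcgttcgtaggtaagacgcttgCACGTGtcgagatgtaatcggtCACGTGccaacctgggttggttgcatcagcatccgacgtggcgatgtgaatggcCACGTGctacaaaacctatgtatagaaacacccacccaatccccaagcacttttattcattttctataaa
The match of bHLH38 is CACGTG and starts 97 bases before the gene start, whereas the single match of bHLH39 is CATGTG. A match is a run of letters, and binding was not measured.

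**Figure D1:**
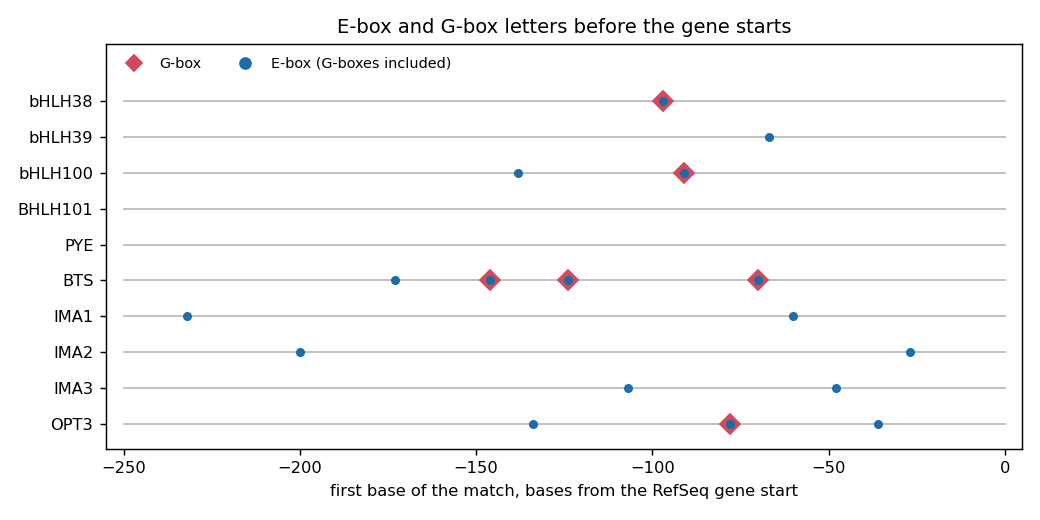
Positions of E-box (CANNTG, blue points) and G-box (CACGTG, red diamonds) letters in the 250 bases before the RefSeq gene start of each of the 10 genes; the horizontal axis gives the first base of the match in bases from the start. BTS has 3 G-boxes and bHLH38, bHLH100 and OPT3 have 1 each, and the lines of BHLH101 and PYE are empty.

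The first comparison asked what differed after 20 s of high light. All 10 regulators stood lower at 20 s than at 0 s, where 51.5% of all 13946 genes were lower. Their median log2 ratio, computed as log2 of (FPKM + 1) at 20 s over (FPKM + 1) at 0 s, was -0.52, and single genes ran from -0.81 to -0.22. The median of all genes was -0.0045. Summed over the 10 genes, the level was 1958 FPKM at 0 s and 1335 at 20 s, that is 68.1% of the control. At 2-fold, the limit set for these comparisons, 0 of the 10 were lower, against 0.143% of all genes. At 1.5-fold, 3 were lower (bHLH38, bHLH39 and IMA3), against 0.502% of all genes. On the other side, 48.5% of all genes were higher, 1.79% by at least 1.5-fold. This contrast was known when the genes were picked, so the shares of all genes are given for reference only.

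Among the bHLH Ib factors, bHLH38 (AT3G56970) stood at 86.0 FPKM at 0 s, 48.5 at 20 s and 59.7 at 60 s. Its value at 20 s was 1.76-fold lower than at 0 s, counted on FPKM + 1 like every fold given here, and this was the lowest ratio of the 10 genes. Its tandem neighbour bHLH39 (AT3G56980), with 39.6, 25.2 and 28.0 FPKM, was 1.55-fold lower at 20 s. Both genes were thus lowest at 20 s and highest at 0 s, and the level of bHLH38 was 2.17 times that of bHLH39 at 0 s, 1.92 times at 20 s and 2.13 times at 60 s. Their coding sequences matched at 83.1% of aligned positions, and the longest run shared by their transcripts was 34 bases, so some sharing of reads is possible.

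bHLH100 (AT2G41240), the most abundant of the 4, had 179 FPKM at 0 s, 119 at 20 s and 126 at 60 s. Its level at 20 s was 66.5% of that at 0 s. On FPKM + 1 this fell just short of the 1.5-fold limit, and with a pseudocount of 0.1 FPKM its log2 ratio was -0.59, past that limit. With a pseudocount of 5 FPKM that of bHLH39 was -0.56, short of it. At 60 s bHLH100 was 1.42-fold lower than at 0 s. BHLH101 (AT5G04150) was the least abundant of the 10 genes, at 21.3, 18.0 and 23.1 FPKM. It differed from the other 3 in order as well, being 1.17-fold lower at 20 s but 1.08-fold higher at 60 s than at 0 s. As a result bHLH100 stood at 8.40 times the level of BHLH101 at 0 s, 6.61 times at 20 s and 5.44 times at 60 s. BHLH101 is also the most distant of the 4 in sequence, with 54.6% to 56.2% identical positions against the other coding sequences, whereas the other 3 matched each other at 69.5% to 83.1%.

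By the table's own coordinates, counted from 1 on the TAIR9 build that the submitters' processing notes name, bHLH38 lies on chromosome 3 from 21084110 to 21085150 and bHLH39 from 21086546 to 21087494. bHLH100 lies on chromosome 2 from 17198282 to 17199320 and BHLH101 on chromosome 5 from 1138559 to 1139476. FPKM was given per gene, so exonic, intronic and UTR signal cannot be separated.

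The 2 regulators on the restraining side of the pathway, PYE and BTS, were lower at both exposures than at 0 s. PYE (AT3G47640), a bHLH repressor of iron genes, stood at 37.3, 25.6 and 29.1 FPKM and was 1.44-fold lower at 20 s. BTS (AT3G18290), the ligase, stood at 167, 125 and 126 FPKM, so that its values at 20 s and 60 s were nearly the same at 74.6% and 75.4% of the value at 0 s. Its ratio at 20 s was 1.34-fold lower. PYE lies on chromosome 3 from 17567597 to 17569315 and BTS on chromosome 3 from 6273995 to 6280510.

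**Figure D2:**
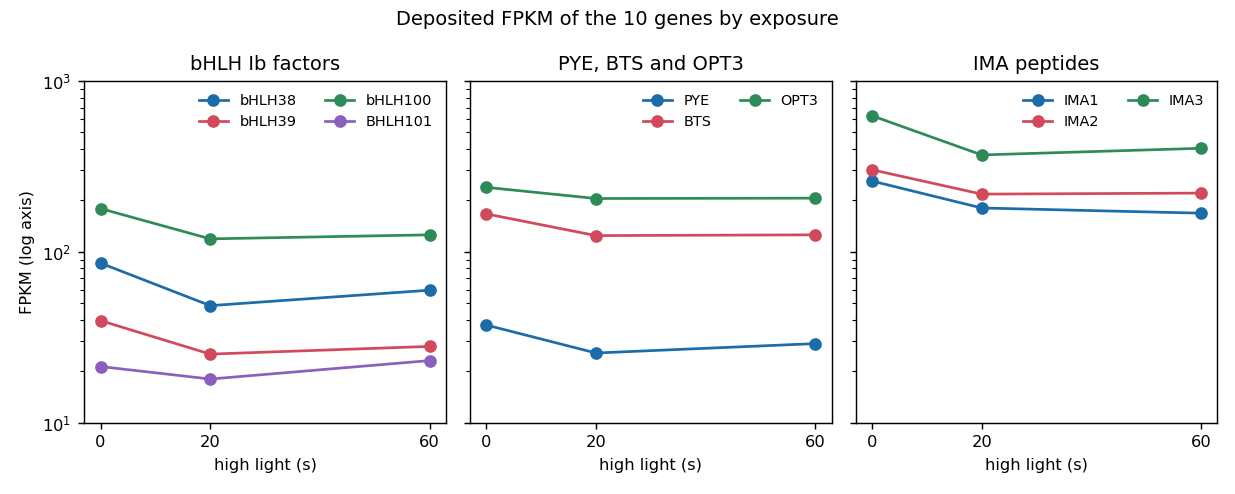
Deposited FPKM (vertical axis, logarithmic) of the 10 genes after 0, 20 and 60 s of high light (horizontal axis), 1 value per gene and exposure, without error bars. At 20 s every line lies below its value at 0 s, and at 60 s BHLH101 at 23.1 FPKM is the one gene above its 0 s value of 21.3 FPKM.

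As deposited, the IMA peptide genes held the highest levels of the set at 0 s. The deposited loci of IMA1 and IMA2 span 470 and 375 bases, whereas their RefSeq transcripts have 779 and 833 bases. FPKM depends on the length used, so the rank of these levels against other genes is uncertain. IMA3 (AT2G30766) stood at 627 FPKM at 0 s, 369 at 20 s and 404 at 60 s, which placed it 148th from the top among the 13946 genes at 0 s. It was 1.69-fold lower at 20 s and had the largest difference of the 10 genes in FPKM (-257 at 20 s against 0 s). IMA2 (AT1G47395) stood at 303, 218 and 221 FPKM, and IMA1 (AT1G47400), beside it on chromosome 1, at 260, 181 and 169 FPKM. IMA2 was 1.39-fold lower and IMA1 1.44-fold lower at 20 s. The value of IMA3 is uncertain for another reason, since the table gives it the same locus (chromosome 2 from 13105770 to 13108470) as AT2G30760, which was listed at 0, 0.632 and 0.203 FPKM. The RefSeq gene of IMA3 also differs from that locus, running from 13107583 to 13110480 with a longest transcript of 1995 bases. It ends beyond 13109794, where the deposited locus of CYP71A13 starts, so the level and rank of IMA3 are uncertain as well. IMA1 lies from 17385717 to 17386186 and IMA2 from 17383034 to 17383408. IMA4 and IMA5 were not analysed here.

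OPT3 (AT4G16370, chromosome 4 from 9247302 to 9250091) had the log2 ratio nearest to 0 at 20 s. Its values were 239, 205 and 206 FPKM, and its level at 20 s was 86.0% of that at 0 s. OPT3 is expressed in the phloem, as are IMA genes, and the 6 vascular markers summed to 269, 271 and 295 FPKM over the exposures. At 20 s, where 48.5% of all genes were higher, 4 of the 6 were higher and 2 lower (median log2 ratio 0.04, from -0.12 for ATHB8 to 0.07 for SEOR1). The phloem companion cell transporter SUC2 stood at 78.3, 73.5 and 82.5 FPKM, and PP2-A1, a phloem protein with the highest ratio of the list at 60 s, at 131, 136 and 150 FPKM. The part of tissue makeup in the values of the 10 genes was not tested.

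**Figure D3:**
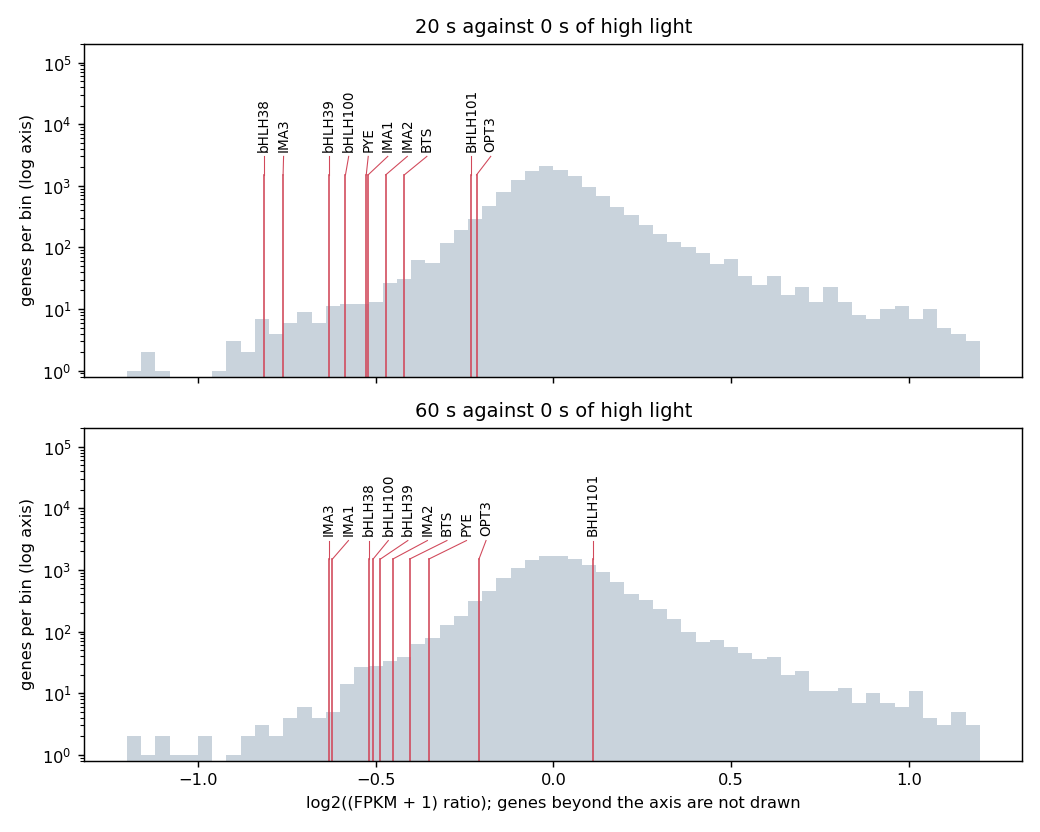
Number of genes per bin of 0.04 (vertical axis, logarithmic) by log2 ratio of FPKM + 1 for 13946 genes, at 20 s against 0 s (top) and at 60 s against 0 s (bottom), with red lines at the 10 regulators. At 20 s the lines run from -0.81 (bHLH38) to -0.22 (OPT3), and at 60 s from -0.63 (IMA3) to 0.11 (BHLH101).

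The second comparison asked what differed after 60 s of high light. At this exposure 9 of the 10 regulators stood lower than at 0 s, against 45.4% of all genes lower and 54.6% higher, with a median log2 ratio of -0.47 (all genes 0.015). IMA3 (1.55-fold lower) and IMA1 (1.54-fold lower) were lowest and were the 2 genes past 1.5-fold, where 0.423% of all genes lay. At 2-fold the count was 0, against 0.186% of all genes. bHLH38, bHLH39 and bHLH100 lay close together at log2 ratios of -0.52, -0.49 and -0.51, followed by IMA2 at -0.45, BTS at -0.40, PYE at -0.35 and OPT3 at -0.21. The sum over the 10 genes was 1392 FPKM, 71.1% of that at 0 s. Both comparisons rest on the same 0 s value of each gene, so they are not independent measurements.

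The third comparison, 60 s against 20 s, does not use the 0 s values. It shares each 20 s value with the first comparison, which was known when the genes were picked. Its counts and the order of the exposures are therefore not independent of that choice, and shares of all genes are for reference only. As deposited, 9 of the 10 were higher at 60 s, against 57.6% of all genes, but BTS, IMA2 and OPT3, each with a log2 ratio of at most 0.02, turned to the lower side when the columns were scaled to an equal sum. The median was 0.10, against 0.02 for all genes. BHLH101 (1.27-fold) and bHLH38 (1.23-fold) stood highest, followed by PYE (1.13-fold), bHLH39 (1.11-fold), IMA3 (1.09-fold) and bHLH100 (1.06-fold). IMA1 was the exception and was 1.07-fold lower at 60 s. At 1.5-fold 0 of the 10 were lower (1.24% of all genes) and 0 were higher (0.545% of all genes). By group, the summed bHLH Ib level went from 326 FPKM at 0 s to 211 at 20 s and 237 at 60 s, and the IMA sum from 1189 to 768 and 794 FPKM. Relative to 0 s, the bHLH Ib sum was at 64.7% after 20 s and 72.5% after 60 s, whereas the IMA sum was at 64.6% and 66.7%. In total 8 of the 10 genes were highest at 0 s and lowest at 20 s, an order that 16.5% of all genes had. With the columns scaled to an equal sum 5 of the 10 had it (18.4% of all genes). The count was 6 under median centring (15.7%) and 6 under quantile normalization (19.3%). As deposited, IMA1 was highest at 0 s and lowest at 60 s (15.4% of all genes), and BHLH101 was lowest at 20 s and highest at 60 s (19.5% of all genes). The control value was thus the highest in 9 of the 10 genes, against 31.9% of all genes.

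The rank of levels within the set changed little. At 0 s the order was IMA3, IMA2, IMA1, OPT3, bHLH100, BTS, bHLH38, bHLH39, PYE and BHLH101. At 20 s and 60 s OPT3 stood above IMA1, BTS stood level with or above bHLH100, and PYE stood level with or above bHLH39. With no error for any value and levels that depend on transcript lengths, it cannot be said which neighbours in this order differ.

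Other genes of the pathway, taken from lists by locus code, separated into those that stood with the 10 regulators and those that did not. Like the regulators, these lists were chosen with earlier results of these data known. Their counts are a description and no separate check of the regulators. Of 10 genes listed as markers of iron deficiency in leaves, 9 were lower at 20 s and 9 at 60 s, with median log2 ratios of -0.39 and -0.31. Among all genes 51.5% were lower at 20 s and 45.4% at 60 s. The lowest ratio at 20 s was that of AT1G13609, at 115, 70.6 and 75.0 FPKM (1.62-fold lower at 20 s). It was the 1 gene of this list past 1.5-fold at either exposure, against 0.502% of all genes at 20 s and 0.423% at 60 s. CGLD27, a chloroplast protein conserved in the green lineage, stood at 303, 217 and 224 FPKM, and ORG1, named for its response to the factor OBP3 like bHLH38 and bHLH39, stood at 311, 223 and 242 FPKM. The targets of PYE were lower as well. NAS4, a nicotianamine synthase, stood at 95.9, 71.4 and 63.9 FPKM, FRO3, a ferric reductase, at 84.5, 65.5 and 65.3 FPKM, and ZIF1, a vacuolar membrane transporter of nicotianamine, at 111, 97.2 and 98.1 FPKM. AT3G07720, counted among the lower genes, stood nearly level at 34.4, 33.8 and 32.3 FPKM. AT3G56360 was the 1 gene that stood higher, at 242, 282 and 323 FPKM.

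The factors upstream of the bHLH Ib genes had no common direction at 20 s. Of 9 listed genes, which include partners such as FIT, 5 reached the minimum level, all of them upstream factors. At 20 s 3 of them were higher and 2 lower (median log2 ratio 0.03), where 48.5% of all genes were higher. At 60 s 4 were higher and 1 lower (median 0.09), where 54.6% of all genes were higher. ILR3 stood at 73.5, 75.0 and 78.8 FPKM, bHLH115 at 61.5, 64.0 and 63.2, and bHLH104 at 37.5, 36.8 and 40.0, all no more than 1.07-fold from the 0 s value. bHLH121, the partner of the bHLH IVc factors, had the highest ratio of the list at both exposures, with levels of 28.7, 36.4 and 39.7 FPKM. bHLH34 had the lowest ratio, with levels of 9.23, 7.54 and 6.73 FPKM. It was lower at both exposures, like most of the regulators, with log2 ratios of -0.26 and -0.41. FIT, the root partner of the bHLH Ib proteins, stayed between 3.26 and 3.88 FPKM, below the minimum. Its targets of root iron uptake were near or at 0, with IRT1 at 0.469, 0.269 and 0.0925 FPKM, IRT2 listed at 0 and FRO2 at 1.31, 1.07 and 1.09 FPKM. Of 7 genes for the secretion of coumarins and related compounds by roots, 1 reached the minimum, COSY at 14.6, 13.4 and 12.1 FPKM.

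**Figure D4:**
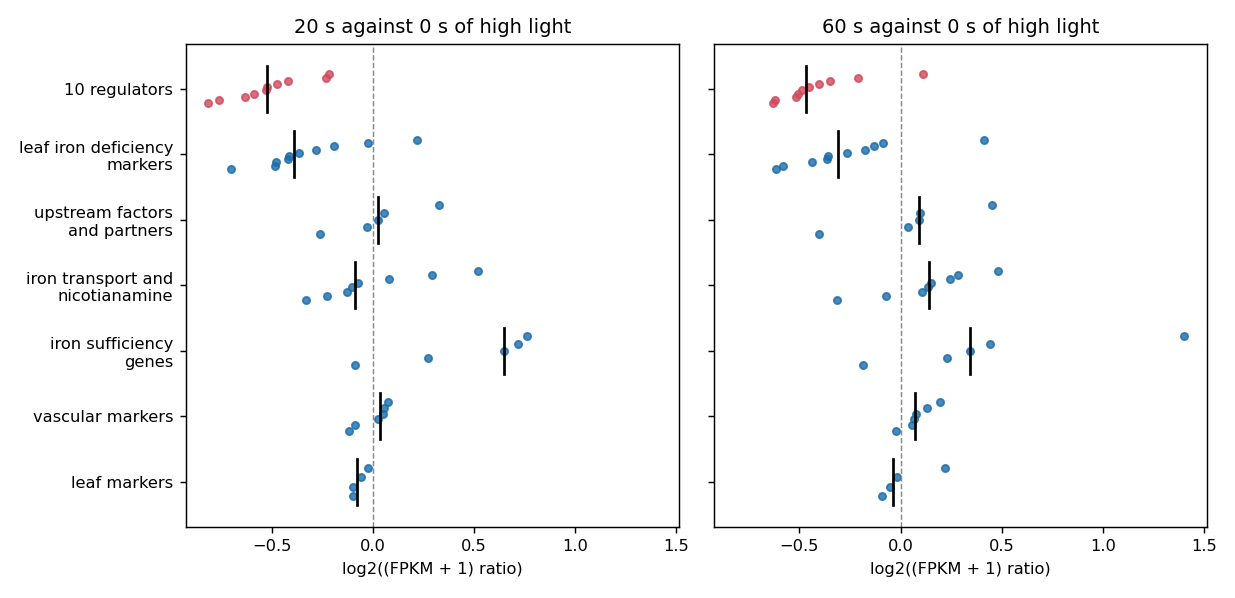
Log2 ratios of FPKM + 1 at 20 s (left) and 60 s (right) against 0 s for each gene with a mean of at least 5 FPKM, by list; red points are the 10 regulators, blue points the other lists, and black bars the medians. The regulators (medians -0.52 and -0.47) and the leaf iron deficiency markers (-0.39 and -0.31) lie mostly left of 0, and the iron sufficiency genes (0.65 and 0.34) mostly right of it.

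Genes that are more abundant when iron is plentiful lay on the other side. Of 10 listed, 5 reached the minimum, and 4 of these were higher and 1 lower both at 20 s and at 60 s (medians 0.65 and 0.34). Among all genes 48.5% were higher at 20 s and 54.6% at 60 s. The plastid ferritin FER1 stood at 11.6, 18.8 and 16.1 FPKM, and NEET, an iron-sulfur protein, at 18.0, 30.2 and 23.0 FPKM. FSD1, the iron superoxide dismutase, had the highest ratio at both exposures (1.69-fold at 20 s), while the ferritin FER3 had the lowest, with levels of 49.4, 46.4 and 43.3 FPKM. At 20 s 3 of the 5 were past 1.5-fold, against 1.79% of all genes in that direction. At 60 s FSD1 was 2.64-fold higher, and the share of all genes that far above 0 s is not given here. FSD1 is also known to respond to copper supply.

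The remaining listed genes of iron transport and nicotianamine synthesis had no common direction at 20 s, with 3 of 8 tested genes higher and 5 lower (median -0.09). At 60 s 6 were higher and 2 lower (median 0.14). Among all genes 48.5% were higher at 20 s and 54.6% at 60 s. NRAMP4, which releases iron from the vacuole, had the lowest ratio at both exposures, with levels of 67.9, 53.9 and 54.5 FPKM. YSL3, a transporter of iron bound to nicotianamine, had the highest ratio at 20 s, with levels of 16.6, 24.2 and 20.4 FPKM. FRO6, a ferric reductase of the shoot, had the highest ratio at 60 s, with levels of 94.7, 86.5 and 133 FPKM. The remaining 11 listed genes were below the minimum, and IRT2, NAS2 and FPN2 were listed at 0 at every exposure. NAS1, at 26.2, 24.9 and 28.3 FPKM, was the only synthase tested in this list. NAS4, FRO3 and ZIF1, all lower at 20 s and 60 s, were counted with the leaf markers, and OPT3 with the regulators. The directions here therefore depend on how the lists were cut.

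Of 16 genes flanking the regulators on the chromosome, 9 reached the minimum and were above 0 at every exposure, with log2 ratios between -0.16 and 0.17 at 20 s and between -0.26 and 0.23 at 60 s. At 60 s 2 of them lay farther from 0 than both OPT3 and BHLH101 did. These were CYP71A13, next to IMA3 by the deposited coordinates, at 14.5, 16.4 and 11.97 FPKM, and AT2G41250, next to bHLH100, at 70.1, 66.0 and 82.5 FPKM.

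Nearness to the median of the 10 was the straight-line distance over both log2 ratios, those at 20 s and 60 s against the control. The 5 nearest genes outside the set were HSP81-3 (AT5G56010), CGLD27, AT1G24580, HSP81-2 (AT5G56030) and AT5G18920. Their distances ran from 0.045 to 0.075. HSP81-3 stood at 170, 114 and 123 FPKM and HSP81-2 at 169, 123 and 121 FPKM, and both are cytosolic chaperones of the HSP90 family whose near-identical sequences make their separate values uncertain. CGLD27 also belongs to the list of leaf iron deficiency markers. How many genes lie this near was not counted, and likeness over 3 values is a description only.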

How the data were processed

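Deposited FPKM values, 1 per gene and exposure, were analysed. The submitters' processing notes name TopHat, Bowtie and Cufflinks and the TAIR9 build; how the 3 pools were combined, strand handling and library selection are not stated there. The authors' FPKM columns were matched to exposures by name, with 0 columns left unmapped. A limma fit was planned for the case of single pools and was not possible. Log2 ratios used a pseudocount of 1 FPKM, which understates differences of low genes, and a mean of at least 5 FPKM. Ratios of low genes (above 0 and under 0.2 FPKM) between columns gathered on no single step, with at most 20 of 1430 genes in 1 bin, so read depth is unknown. The members and lists were chosen with earlier results of these data known. The text names all 10 members, the highest and lowest of each list per comparison, the 5 nearest genes and a neighbour whose locus overlaps a member; other named genes were chosen after their values were seen. Code was tested on simulated data. Alternatives were other pseudocounts, minimum levels, scalings, a 1.5-fold limit and a restricted gene set. Sequences, coding lengths and gene starts came from RefSeq TAIR10.1, matched by locus code for 10 of 10 members, and identities from global alignment with Biopython 1.88. Python 3.11.15, pandas 2.3.3, numpy 2.4.6 and matplotlib 3.10.9 were used.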

Additional observations from a re-analysis of the deposited data

How the results depend on the processing

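No paired analysis was possible because the table holds 1 value per exposure and none for the single pools, and for the same reason no pool could be left out. Changing the minimum level, the fold limit or the gene set cannot move a ratio, so under those alternatives each ratio repeats its main value. Only the pseudocounts and scalings recompute it. Of 327 ratios of single regulators over all alternatives, 319 kept their direction and moved by less than 0.29 on the log2 scale. The other 8 changed sign, all at 60 s against 20 s and all under a scaling. These were BTS (-0.0076), IMA2 (-0.0026) and OPT3 (-0.0157) under median centring, BTS (-0.0334), IMA2 (-0.0285) and OPT3 (-0.0416) with columns scaled to an equal sum, and BTS (-0.0070) and OPT3 (-0.0062) under quantile normalization. The number of regulators lower at 60 s than at 20 s, 1 as deposited, was accordingly 4, 4 and 3. The number highest at 0 s and lowest at 20 s, 8 as deposited, was 6, 5 and 6 under these scalings in the same order. That order was held by 10.9% of all genes with no minimum level. With the 1.5-fold limit 3 regulators were lower at 20 s and 2 at 60 s than in the control, instead of 0. The counts of all genes at least 2-fold lower, 20 (20 s against 0 s), 26 (60 s against 0 s) and 33 (60 s against 20 s), became 70, 59 and 173 at 1.5-fold. They were 3, 6 and 12 among genes above 0 with a locus of at least 300 bp that overlaps no other (9 of the 10 regulators, without IMA3), 13, 14 and 19 with a mean of at least 10 FPKM, and 11, 9 and 13 with a mean of at least 20 FPKM, a level added after the data were seen. With no minimum 36 genes were lower at 20 s than in the control and 56 were lower at 60 s than at 20 s, and a minimum of 1 FPKM gave 32 genes lower at 20 s than in the control. These counts change with the number of genes considered and the limit. Medians of the 10 regulators kept their sign under every alternative. Depth and the spread between pools are unknown, so differences of this size could not be set against either.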

Other observations

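The short feature AT3G18291, 129 bp long and next to BTS on chromosome 3, was listed at 16.8 FPKM at 0 s and at 0 at 20 s and 60 s. A listed 0 can be a failed estimate, and no fold is given for it.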
